A study of Mus musculus with 16 samples.

Results

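RNA of astrocyte identity and reactivity genes was examined in bulk brain of 16 female mice. The set holds 10 genes chosen by name, with earlier results of these data known. Of these, 3 belong to the reactive state (Gfap, Vim and Serpina3n) and 7 to astrocyte identity (Aqp4, Aldh1l1, S100b, Slc1a2, Slc1a3, Gja1 and Gjb6). Each of the 10 was found once among the 55487 gene identifiers counted, and all 10 were among the 18609 genes that reached 10 counts in 4 or more mice and were tested.

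The CETPtg mice carry a transgene for CETP, a plasma lipid transfer protein that mice lack, and the APPtg/CETPtg mice carry a mutant human APP transgene in addition. In each genotype, 4 mice were given the CETP inhibitor evacetrapib at 30 mg/kg for 11 weeks and 4 received vehicle for as long. All 16 mice had a C57/bl6 background and ate food with 1% (w/w) cholesterol, which by the study's methods began at 11 weeks of age. The Thy1 promoter drives APP in neurons, so astrocytes were not the cells made to express it. The identifiers counted are of mouse genes with 0 entries for human CETP or APP, and transgene RNA was therefore not measured.

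Counts on genes summed to 33350146, 37041345, 37709734 and 28626139 in vehicle-treated CETPtg replicates S1 to S4 and to 46800787, 33684250, 38103270 and 35045284 in evacetrapib-treated CETPtg replicates A to D. They summed to 21866883, 22587182, 27398792 and 55453789 in vehicle-treated APPtg/CETPtg replicates S5 to S8 and to 25854334, 24791144, 21391335 and 21430208 in evacetrapib-treated APPtg/CETPtg replicates E to H. The APPtg/CETPtg libraries were thus shallower, apart from S8, which was the deepest of all 16. The smallest count of any of the 10 genes in a mouse was 319. By the labels, the libraries of the genotypes sat in different columns of the index plate and those of the treatments in different lines of it. Column and genotype cannot be told apart, nor line and treatment.

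Astrocytes clear glutamate from synapses, buffer potassium, move water at their endfeet on blood vessels and share ions and metabolites through gap junctions. After injury or beside amyloid they become reactive, which is classically recognised by more intermediate filament protein and by secreted proteins such as the serpin encoded by Serpina3n. Identity genes mark astrocytes in any state, and their RNA may be kept or lost when the cells react.

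Levels between genes were compared as CPM (counts scaled to a common library size) per kilobase of exon, averaged over the 16 mice. Slc1a2, which encodes the main glutamate transporter of forebrain astrocytes, stood highest at 124 ± 20.02 CPM per kilobase (SD, n = 16). S100b, which encodes a calcium-binding protein, followed at 65.7 ± 4.80, and Slc1a3, which encodes the other astrocytic glutamate transporter, at 54.9 ± 3.98 CPM per kilobase. Gfap, the intermediate filament gene that defines reactive astrocytes, had a level of 35.7 ± 6.26 CPM per kilobase. The connexin 30 gene Gjb6 at 16.8 ± 1.14 and the folate enzyme gene Aldh1l1 at 15.8 ± 0.993 CPM per kilobase did not differ beyond their spread. Nor did the water channel gene Aqp4 at 12.4 ± 1.96 and the connexin 43 gene Gja1 at 11.4 ± 1.31 CPM per kilobase. The lowest levels were those of Vim, another intermediate filament gene, at 8.54 ± 0.855 and of Serpina3n, which encodes a protease inhibitor, at 7.36 ± 2.08 CPM per kilobase, a pair that also lay within its spread. The other neighbours in this order differed by more than 1 SD of either gene.

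The genes also differed in how much they varied between mice. The coefficient of variation of CPM over the 16 mice was 28.3% for Serpina3n, 17.6% for Gfap, 16.2% for Slc1a2, 15.8% for Aqp4, 11.5% for Gja1 and 10.02% for Vim. It was between 6.30% and 7.31% for Slc1a3, S100b, Gjb6 and Aldh1l1, beside a median of 6.98% among tested genes with a mean of at least 20 CPM. Serpina3n, with a mean of 15.2 CPM, lies below that limit, and the median over all tested genes was 10.9%. These values pool the groups, so differences between genotypes and treatments enter them. The high value of Serpina3n includes replicate S6 at 29.6 CPM, where the rest of its group had between 13.1 and 15.0 CPM. Neither that value nor its place above Gfap was checked without S6.

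The label of brain was checked against markers. Neuronal markers, with Snap25 as the most abundant, summed to between 7105 and 8280 CPM in every mouse, and markers of oligodendrocytes, microglia, endothelial and mural cells were counted in every mouse as well. The cerebellar markers Pcp2 and Gabra6 were too low to be tested, with highest counts of 60 and 4 in a mouse. The other 4 cerebellar markers were tested, with Zic1 highest at a mean of 45.6 CPM, and the markers of that list summed to between 38.4 and 97.6 CPM in every mouse.

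**Figure D1:**
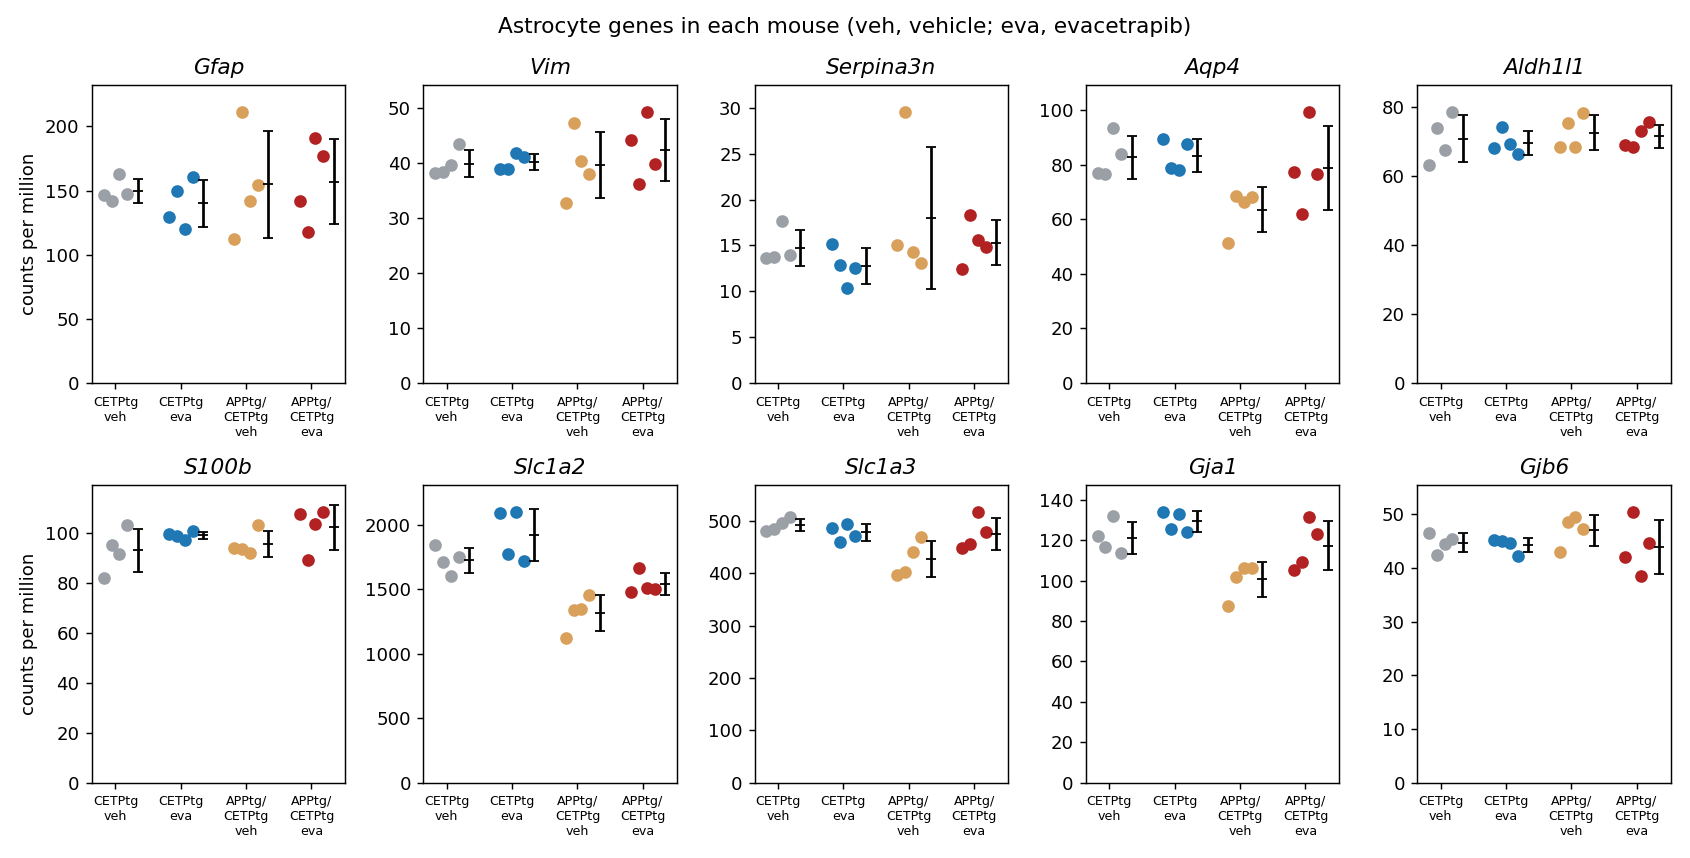
CPM of the 10 astrocyte genes in each mouse (points), with the mean and SD (n = 4) of each group of genotype and treatment beside them, on axes that start at 0. Slc1a2, Slc1a3, Gja1 and Aqp4 have their lowest group mean in vehicle-treated APPtg/CETPtg mice, while the groups overlap for Gfap, Vim and Serpina3n.

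The genotype comparison asks how the APP transgene goes with the RNA of astrocytes on a CETP background. Gfap had 146, 142, 163 and 147 CPM in vehicle-treated CETPtg replicates S1 to S4 and 112, 211, 142 and 154 CPM in vehicle-treated APPtg/CETPtg replicates S5 to S8. With evacetrapib, Gfap had 129.7, 149.8, 119.98 and 161 CPM in CETPtg replicates A to D and 142, 118, 191 and 177 CPM in APPtg/CETPtg replicates E to H. The genotypes overlapped under both treatments, with both the lowest and the highest mouse of all 16 in the vehicle-treated APPtg/CETPtg group. Between genotypes, over both treatments, the log2 fold change of Gfap was 0.11 (95% interval -0.12 to 0.33, adjusted p = 0.544, quasi-likelihood F-test in edgeR, Benjamini-Hochberg adjustment).

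Vim had 38.2, 38.4, 39.6 and 43.4 CPM in vehicle-treated CETPtg replicates S1 to S4, and 32.8, 47.2, 40.3 and 38.0 CPM in vehicle-treated APPtg/CETPtg replicates S5 to S8. With evacetrapib, Vim had 38.9, 38.9, 41.8 and 41.0 CPM in CETPtg replicates A to D and 44.2, 36.3, 49.3 and 39.8 CPM in APPtg/CETPtg replicates E to H. As with Gfap, the APPtg/CETPtg mice lay on both sides of the CETPtg mice, with S5 and F low and S6 and G high. The log2 fold change of Vim was 0.03 (95% interval -0.10 to 0.17, adjusted p = 0.789, the same test).

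Serpina3n had 13.6, 13.7, 17.7 and 13.9 CPM in vehicle-treated CETPtg replicates S1 to S4 and 15.0, 29.6, 14.3 and 13.1 CPM in vehicle-treated APPtg/CETPtg replicates S5 to S8. With evacetrapib, it had 15.2, 12.9, 10.4 and 12.6 CPM in CETPtg replicates A to D and 12.5, 18.3, 15.6 and 14.8 CPM in APPtg/CETPtg replicates E to H. A single mouse, S6, stood far above the others, and the genotypes overlapped under both treatments. The log2 fold change of Serpina3n, with S6 included, was 0.26 (95% interval -0.02 to 0.55, adjusted p = 0.203, the same test). Apart from S6, the vehicle-treated APPtg/CETPtg mice had between 13.1 and 15.0 CPM, beside 13.6 to 17.7 CPM in vehicle-treated CETPtg mice. None of the 3 reactive genes passed the test in any of the 7 comparisons, and none had an unadjusted p under 0.05 in edgeR's quasi-likelihood test of either factor over all mice.

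The identity genes differed from each other in the genotype comparison. Slc1a2 had 1840, 1712, 1599 and 1746 CPM in vehicle-treated CETPtg replicates S1 to S4 and 1120, 1339, 1351 and 1454 CPM in vehicle-treated APPtg/CETPtg replicates S5 to S8. With evacetrapib, Slc1a2 had 2093, 1770.3, 2101 and 1718 CPM in CETPtg replicates A to D and 1477, 1667, 1510 and 1504 CPM in APPtg/CETPtg replicates E to H. Every APPtg/CETPtg mouse lay below every CETPtg mouse of the same treatment. Over both treatments Slc1a2 fell by 0.35 on the log2 scale (SE 0.055, adjusted p = 0.000275, the same test), and it was lower with vehicle (log2 fold change -0.39, adjusted p = 0.00539) and with evacetrapib (-0.32, adjusted p = 0.0346). Among the other identity genes, the same comparison gave 0.04 for Aldh1l1, 0.04 for S100b, 0.03 for Gjb6, -0.11 for Slc1a3, -0.20 for Gja1 and -0.23 for Aqp4. Astrocytes were not counted, and whether their number or the RNA per astrocyte differed was not tested.

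Slc1a3 had 481, 486, 496 and 508 CPM in vehicle-treated CETPtg replicates S1 to S4 and 396, 403, 441 and 469 CPM in vehicle-treated APPtg/CETPtg replicates S5 to S8. With evacetrapib, Slc1a3 had 487, 460.2, 495 and 471 CPM in CETPtg replicates A to D and 448, 456, 518 and 479.5 CPM in APPtg/CETPtg replicates E to H. The vehicle-treated genotypes did not overlap, whereas the evacetrapib-treated ones did, with G the highest of all 16 mice. Under vehicle the log2 fold change of Slc1a3 was -0.21 (SE 0.055, adjusted p = 0.0240, quasi-likelihood F-test in edgeR, Benjamini-Hochberg adjustment). It was -0.01 under evacetrapib (95% interval -0.12 to 0.11, adjusted p = 0.953) and -0.11 over both treatments (adjusted p = 0.101).

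Gja1, whose protein forms most of the gap junctions between astrocytes, had 122, 116, 132 and 114 CPM in vehicle-treated CETPtg replicates S1 to S4 and 87.6, 102, 106 and 106 CPM in vehicle-treated APPtg/CETPtg replicates S5 to S8. With evacetrapib, it had 134, 126, 133 and 124 CPM in CETPtg replicates A to D and 105, 109, 131 and 123 CPM in APPtg/CETPtg replicates E to H. The vehicle-treated genotypes were apart, and under evacetrapib G lay among the CETPtg mice. Over both treatments Gja1 fell by 0.20 on the log2 scale (SE 0.051, adjusted p = 0.00919, the same test), with a log2 fold change of -0.27 under vehicle (adjusted p = 0.0238) and -0.14 under evacetrapib (adjusted p = 0.282).

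Aqp4, whose water channel sits in the endfeet around vessels, had 77.1, 76.5, 93.4 and 83.9 CPM in vehicle-treated CETPtg replicates S1 to S4 and 51.4, 68.4, 66.4 and 68.0 CPM in vehicle-treated APPtg/CETPtg replicates S5 to S8. With evacetrapib, Aqp4 had 89.3, 78.6, 77.9 and 87.4 CPM in CETPtg replicates A to D and 77.3, 61.9, 99.3 and 76.7 CPM in APPtg/CETPtg replicates E to H. Under vehicle the genotypes did not overlap, and under evacetrapib G was above and the other 3 APPtg/CETPtg mice were below every CETPtg mouse. The log2 fold change of Aqp4 was -0.38 under vehicle (SE 0.112, adjusted p = 0.0376, the same test), -0.08 under evacetrapib (95% interval -0.32 to 0.15, adjusted p = 0.749) and -0.23 over both treatments (adjusted p = 0.0647).

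Aldh1l1, S100b and Gjb6 had no call in any of the 7 comparisons. Over both treatments their log2 fold changes between genotypes were 0.04 for Aldh1l1 (95% interval -0.06 to 0.13), 0.04 for S100b (-0.05 to 0.14) and 0.03 for Gjb6 (-0.07 to 0.13). Over the 16 mice, Aldh1l1 ranged from 63.3 to 78.6 CPM, S100b from 82.0 to 109 CPM and Gjb6 from 38.6 to 50.5 CPM.

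Over both treatments, 2 of the 10 genes were called between genotypes (adjusted p up to 0.05 and a level higher or lower by at least 5%), both lower in APPtg/CETPtg mice. Among all tested genes 17.7% were called and 8.38% were called lower, so the 2 calls are near the background. Under vehicle 4 of the 10 were called, all lower, beside 10.4% of all tested genes called and 4.42% called lower. The same 4 had groups that did not overlap, beside 17% of all tested genes. Under evacetrapib 1 of the 10, Slc1a2, was called lower and had groups that did not overlap, beside 2.99% of all tested genes called, 1.71% called lower and 10.8% with groups apart. The median log2 fold change of the 10 genes over both treatments was 0.03, beside 0.0046 over all tested genes. As the 10 genes were chosen with earlier results of these data known, setting them beside all tested genes is no independent comparison. The lower RNA under vehicle is not shown to differ from that under evacetrapib, since none of the 10 genes passed the test of that difference by edgeR or DESeq2.

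The genotype difference followed the length and base composition of transcripts across all tested genes. The median log2 fold change between genotypes went from 0.11 in the decile of genes with the shortest exons to -0.10 in the decile with the longest. It went from -0.13 in the decile with the lowest GC content to 0.08 in the decile with the highest. Of the longest decile 31.7% were called lower in APPtg/CETPtg mice, and of the shortest decile 1.78%. The trend of log2 CPM with length, per doubling, lay between 0.0073 and 0.026 in the 8 CETPtg mice and between -0.033 and 0.0025 in the 8 APPtg/CETPtg mice, which did not overlap. The trend with GC content, per 10 points of percent, overlapped over both treatments, lying between -0.12 and 0.065 in CETPtg mice and between -0.017 and 0.076 in APPtg/CETPtg mice. It did not overlap under vehicle, with -0.083 to -0.011 in CETPtg replicates S1 to S4 and 0.021 to 0.076 in APPtg/CETPtg replicates S5 to S8.

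The 4 astrocyte genes with calls are the 4 longest and the 4 poorest in GC of the 10. Slc1a2 has 13133 exon bases and a GC content of 45.3%, Gja1 10257 bases and 42.2%, Slc1a3 8537 bases and 45.7%, and Aqp4 6233 bases and 41.4%. The other 6 have between 1484 and 4743 exon bases and a GC content between 46.5% and 55.5%. The same tests were run with each mouse's trends of log2 CPM with GC content and exon length taken out, an alternative chosen after seeing the data. Slc1a2 was then called over both treatments alone, at -0.24 (adjusted p = 0.00842, quasi-likelihood F-test in edgeR, Benjamini-Hochberg adjustment), and missed the threshold under vehicle (-0.24, adjusted p = 0.0714) and under evacetrapib (-0.24, adjusted p = 0.148). Gja1 was at -0.07 over both treatments (adjusted p = 0.388) and at -0.10 under vehicle (adjusted p = 0.416). Under vehicle Slc1a3 was at -0.10 (adjusted p = 0.302) and Aqp4 at -0.25 (adjusted p = 0.195). Members called went from 2 to 1 over both treatments, from 4 to 0 under vehicle and from 1 to 0 under evacetrapib. Among all tested genes, the calls over both treatments went from 1740 higher and 1559 lower to 1063 higher and 550 lower, and those under vehicle from 1112 higher and 822 lower to 715 higher and 159 lower. What made the trends differ between the genotypes was not tested.

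**Figure D2:**
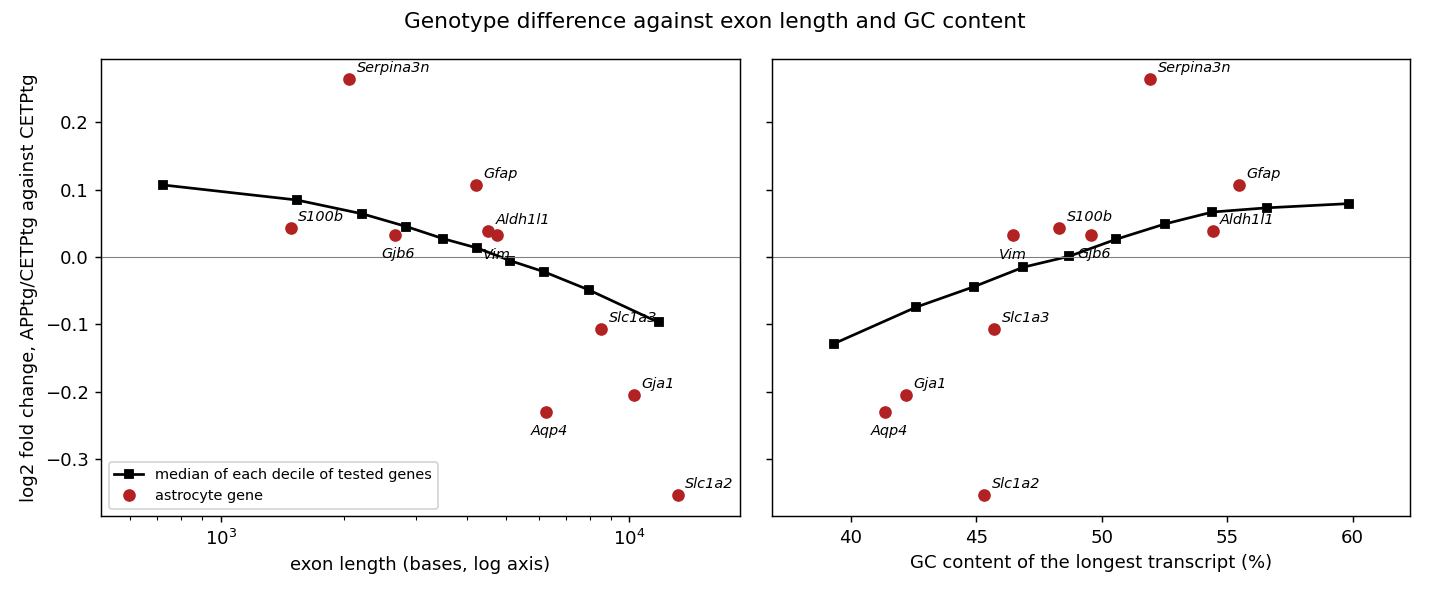
Log2 fold change of each astrocyte gene between APPtg/CETPtg and CETPtg mice over both treatments (red points) against exon length (left, bases on a log axis) and GC content of its longest transcript (right, percent), with the median of each decile of the tested genes in black. The medians fall with length from 0.11 to -0.10 and rise with GC content from -0.13 to 0.08, and Slc1a2, Gja1, Slc1a3 and Aqp4 lie below the medians of their deciles.

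**Figure D3:**
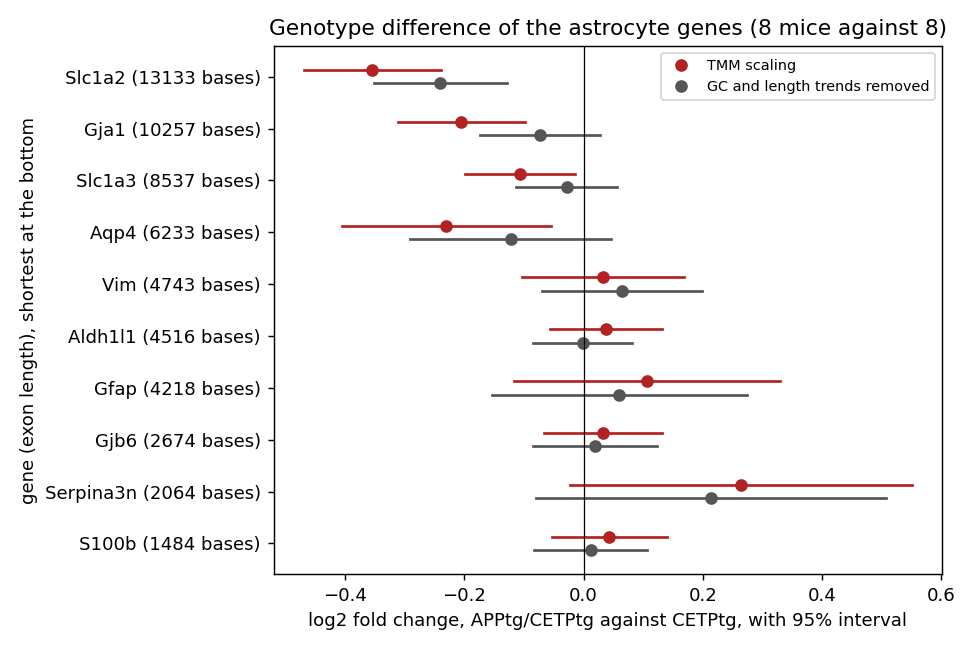
Log2 fold change of the 10 astrocyte genes between APPtg/CETPtg and CETPtg mice (8 against 8, points) with 95% intervals (lines), ordered by exon length, with TMM scaling in red and with the GC and length trends removed in grey. The intervals of Slc1a2 lie below 0 under both settings, and those of Gja1, Slc1a3 and Aqp4 lie below 0 with TMM scaling and span 0 without the trends.

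Some calls were lost or gained when 1 mouse was left out. Slc1a2 and Gja1 were called over both treatments, and Slc1a2 under vehicle, whichever of the 16 mice was left out. Under vehicle 1 gene was called without S3 or without S5 and 2 without S1 or without S4. Gja1 missed the threshold there without S1, S3 or S5 (adjusted p = 0.0606, 0.0911 and 0.0741), and Slc1a3 without S3, S4, S5 or S6 (adjusted p = 0.0650, 0.0591, 0.0753 and 0.0584). Aqp4 missed it without S1, S3, S4, S5, S7 or S8, with adjusted p between 0.0515 and 0.128. Under evacetrapib Slc1a2 missed it without A, C, E, G or H, with adjusted p between 0.0790 and 0.118. In the runs that lost a call, the log2 fold change lay between -0.41 and -0.29 for Aqp4 (-0.38 with all mice), between -0.26 and -0.21 for Gja1 (-0.27), between -0.20 and -0.17 for Slc1a3 (-0.21) and between -0.31 and -0.27 for Slc1a2 (-0.32). Over both treatments Aqp4 was called without B (adjusted p = 0.0495) and without G (adjusted p = 0.00539), and Slc1a3 without G (adjusted p = 0.0272), which made 4 genes.

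The treatment comparison asks whether inhibition of CETP goes with a change in these genes. Over both genotypes none of the 4 genes called between genotypes passed the test. Slc1a2 had a log2 fold change of 0.19 (95% interval 0.08 to 0.31, unadjusted p = 0.00241, adjusted p = 0.321, quasi-likelihood F-test in edgeR, Benjamini-Hochberg adjustment). Gja1 had 0.16 (95% interval 0.05 to 0.26, unadjusted p = 0.00667, adjusted p = 0.438), and Aqp4 0.16 (95% interval -0.02 to 0.33, adjusted p = 0.682). Among the reactive genes, the log2 fold change was -0.04 for Gfap (95% interval -0.26 to 0.18), 0.05 for Vim (-0.08 to 0.19) and -0.21 for Serpina3n (-0.50 to 0.08), with adjusted p between 0.749 and 0.967. Some of these values moved much when 1 mouse was left out. The range was then -0.27 to -0.06 for Serpina3n, -0.10 to 0.04 for Gfap and 0.09 to 0.20 for Aqp4, without a call. By edgeR 0 of the 10 genes were called, beside 0.0107% of all tested genes, and 2 of the 10 and 1472 of all tested genes had an unadjusted p under 0.05. The Wald test of DESeq2 called 0 of the 10 and 57 of all tested genes.

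In CETPtg mice 0 of the 10 genes were called by edgeR, beside 0% of all tested genes, and 0 of the 10 and 1079 of all tested genes had an unadjusted p under 0.05. DESeq2 called 0 there as well, and 0 of the 10 had groups that did not overlap, beside 3.92% of all tested genes. The log2 fold change in CETPtg mice was 0.16 for Slc1a2 (95% interval -0.01 to 0.32, adjusted p = 0.837), 0.09 for Gja1 (-0.05 to 0.24), 0.01 for Aqp4 (-0.22 to 0.24) and -0.04 for Slc1a3 (-0.16 to 0.07).

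In APPtg/CETPtg mice 0 of the 10 genes were called by edgeR, beside 0.043% of all tested genes, while 4 of the 10 and 1677 of all tested genes had an unadjusted p under 0.05. DESeq2 called 0 of the 10 and 73 of all tested genes. The 4 genes were those called between genotypes under vehicle. Their log2 fold changes were 0.31 for Aqp4 (95% interval 0.07 to 0.54, adjusted p = 0.411), 0.23 for Slc1a2 (0.06 to 0.39, adjusted p = 0.384), 0.22 for Gja1 (0.07 to 0.37, adjusted p = 0.357) and 0.15 for Slc1a3 (0.04 to 0.27, adjusted p = 0.400). Slc1a2 was higher in every evacetrapib-treated than in every vehicle-treated APPtg/CETPtg mouse, which made 1 of the 10 with groups that did not overlap, beside 4.29% of all tested genes. This comparison and that of the genotypes under vehicle share the 4 vehicle-treated APPtg/CETPtg mice, so a low value in those mice enters both.

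The difference of the evacetrapib effect between genotypes was tested as well. By edgeR 0 of the 10 genes were called, beside 0% of all tested genes, and 1 of the 10 and 1271 of all tested genes had an unadjusted p under 0.05. DESeq2 called 0 of the 10 and 2 of all tested genes. The 1 gene was Slc1a3, with a log2 difference of 0.20 (95% interval 0.03 to 0.36, unadjusted p = 0.0214, adjusted p = 0.702, quasi-likelihood F-test in edgeR, Benjamini-Hochberg adjustment). The difference was 0.30 for Aqp4 (-0.03 to 0.63, adjusted p = 0.739), 0.12 for Gja1 (-0.09 to 0.34, adjusted p = 0.815) and 0.07 for Slc1a2 (-0.16 to 0.30, adjusted p = 0.914).

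Other genes of astrocytes were counted in lists, each set beside the median log2 fold change of 0.0046 over all tested genes between genotypes. Of 30 other astrocyte genes, 3 were called higher and 4 lower in APPtg/CETPtg mice over both treatments, beside 17.7% of all tested genes called and 8.38% called lower, with a median of 0.02. The bicarbonate cotransporter gene Slc4a4 fell by 0.36 on the log2 scale (adjusted p = 0.000192, the same test), and Sox9, which encodes a transcription factor of astrocytes, fell by 0.39 (adjusted p = 0.000286). Id4 and the potassium channel gene Kcnj10 were also lower, at -0.20 and -0.19, and Cbs, Mfge8 and Aldoc were higher, at 0.19, 0.16 and 0.14. Without the GC and length trends Slc4a4, Sox9 and Cbs were still called, at -0.26, -0.39 and 0.22, and Id4, Kcnj10, Mfge8 and Aldoc were not. Hepacam, which had missed the threshold at -0.12 (adjusted p = 0.0515), was then called lower.

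Slc4a4 had 200.2, 203, 205 and 209.7 CPM in vehicle-treated CETPtg replicates S1 to S4 and 134, 144, 147 and 141 CPM in vehicle-treated APPtg/CETPtg replicates S5 to S8. The vehicle-treated genotypes were far apart, with a log2 fold change of -0.53 (adjusted p = 2.1e-05, quasi-likelihood F-test in edgeR, Benjamini-Hochberg adjustment) that was -0.41 without the trends. Under evacetrapib the log2 fold change of Slc4a4 was -0.19 (adjusted p = 0.0575), and the change between treatments did not pass (unadjusted p = 0.000182, adjusted p = 0.483, the test of the difference of the effects). DESeq2 called Slc4a4 lower between genotypes under evacetrapib too and higher with evacetrapib in APPtg/CETPtg mice, and did not call the difference of the effects. Slc6a11, which encodes a GABA transporter, was called lower under vehicle, at -0.60 (adjusted p = 0.0240).

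Calls in lists of reactive genes were near the background of 17.7% of all tested genes called between genotypes. Of 11 tested pan-reactive genes 1 was called higher and 0 lower by edgeR, with a median of 0.05. In edgeR's test 2 of the 11 had an unadjusted p under 0.05, beside 30.5% of all tested genes. DESeq2 called Lcn2 and Aspg higher. The gene called by edgeR was Lcn2, at 1.02 (adjusted p = 0.0430), which had between 2 and 44 counts in a mouse. Of 11 tested A1 genes, a set described in neuroinflammation, 1 was called higher (H2-T23, 0.28) with a median of 0.13, and of 9 tested A2 genes, described after ischaemia, 1 was called higher (S100a10, 0.19) with a median of 0.03. DESeq2 called H2-T23 of the A1 genes and S100a10 and Ptgs2 of the A2 genes higher over both treatments, and S100a10 and Ptgs2 under vehicle. Ptgs2, an A2 gene, was higher under vehicle (0.68, adjusted p = 0.0137), where S6 had 18.1 CPM and the other vehicle-treated APPtg/CETPtg mice between 8.57 and 11.7 CPM. Without the GC and length trends Lcn2, H2-T23 and S100a10 were not called between genotypes over both treatments, and Ptgs2 was, at 0.48 (adjusted p = 0.0347), and was still called under vehicle, at 0.81 (adjusted p = 0.0102). Between genotypes under evacetrapib, 4 of the 11 A1 genes had an unadjusted p under 0.05, beside 19.3% of all tested genes, with a median of 0.24 and 0 of the 11 below 0, where edgeR's quasi-likelihood test called 0 and DESeq2 1 (H2-T23). With evacetrapib in APPtg/CETPtg mice, 6 of the 11 A1 genes (median 0.25) and 4 of the 11 pan-reactive genes (median 0.19) had an unadjusted p under 0.05, beside 9.01% of all tested genes, in the same test, which called 0, while DESeq2 called 0 A1 genes and 1 pan-reactive gene (Nes). The 10 other genes of the Serpina3 cluster were too low to be tested.

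Lists around the identity genes held further calls between genotypes. A list of 8 genes for IL-6 family signalling to Gfap also held the nuclear factor I genes Nfia and Nfib. Of the 8 genes 0 were called higher and 3 lower by edgeR, beside 17.7% of all tested genes called, with a median of -0.12. The 3 were Nfia, Nfib and Il6st, of which Il6st alone encodes a part of the signalling itself. DESeq2 called the same 3 lower and Socs3 higher. Nfia and Nfib, which encode nuclear factor I proteins active in astrocyte development, were at -0.46 (adjusted p = 8.63e-06, the same test) and -0.39 (adjusted p = 0.000112), and the receptor subunit gene Il6st at -0.19. Nfia had 29.0, 24.8, 26.7 and 24.9 CPM in vehicle-treated CETPtg replicates S1 to S4 and 17.6, 17.8, 19.2 and 20.9 CPM in vehicle-treated APPtg/CETPtg replicates S5 to S8, which did not overlap. Without the trends Nfia was called at -0.33 and Nfib at -0.24, and Il6st was not. Socs3, an inhibitor of the same signalling, was higher under vehicle at 0.57 (adjusted p = 0.0232) and missed the threshold without the trends (0.52, adjusted p = 0.0598).

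In the endfoot complex that anchors Aqp4, Dmd and Dag1 were called lower, at -0.14 and -0.12. Without the trends Dag1 was still called and Dmd lay at 0.056 (adjusted p = 0.419). Of 8 other brain connexin genes 1 was called lower, beside 8.38% of all tested genes, with a median of -0.09. It was Gjc3 of oligodendrocytes, at -0.33 (-0.26 and still called without the trends). Of 10 genes of glutamate and glutamine handling, 0 were called over both treatments by edgeR's quasi-likelihood test and 0 by DESeq2. In edgeR's test 3 of them had an unadjusted p under 0.05, beside 30.5% of all tested genes, with a median of -0.05. Between genotypes under vehicle, DESeq2 called Slc17a7 of this list higher and edgeR called none. Of 5 S100 genes near S100b in sequence 2 were called higher (S100a1 and S100a16, both 0.16) with a median of 0.18. Among the 18609 tested genes, 1740 were called higher in the same comparison. Without the trends 0 of the 5 were called by edgeR, with a median of 0.076. With evacetrapib over both genotypes, no gene of these lists was called by edgeR's quasi-likelihood test, and DESeq2 called Nfia here and Osmr among the pan-reactive genes.

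Some markers of other cells were called between genotypes, beside 17.7% of all tested genes called and 8.38% called lower over both treatments. The oligodendrocyte markers Cldn11, Mobp, Mal and Mbp were called lower, at -0.24, -0.23, -0.22 and -0.20, and without the GC and length trends Mbp was not. Of 7 microglial markers 3 were called higher (Tmem119, Aif1 and C1qa), beside the same 17.7% of all tested genes called. Their median was 0.13, with Csf1r as the most abundant. Without the GC and length trends Tmem119 alone of the microglial markers was called over both treatments. Their sum was 348, 352, 334 and 374 CPM in vehicle-treated CETPtg replicates S1 to S4 and 365, 362, 337 and 407 CPM in vehicle-treated APPtg/CETPtg replicates S5 to S8. With evacetrapib, the microglial sum was 328, 363, 339 and 324 CPM in CETPtg replicates A to D and 365, 389, 402 and 369 CPM in APPtg/CETPtg replicates E to H, where the genotypes did not overlap.

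Calls between genotypes among the other markers, by edgeR over both treatments, are given beside 17.7% of all tested genes called and 30.5% with an unadjusted p under 0.05. They were 0 of 8 for neurons (3 with an unadjusted p under 0.05), 1 of 5 for oligodendrocyte precursors (Pdgfra, lower), 1 of 7 for endothelial cells (Slco1a4, lower) and 0 of 7 for mural cells (2 with an unadjusted p under 0.05). They were 0 of 5 for ependyma (2 with an unadjusted p under 0.05), 0 of 5 for choroid plexus, 0 of 6 for meningeal fibroblasts, 1 of 4 tested for cerebellum (Zic1, lower), 0 of 5 for olfactory bulb, 0 of 2 tested for hypothalamus and 0 of 1 tested for pituitary, where the lists with 0 calls from choroid plexus on had 0 genes with an unadjusted p under 0.05. DESeq2 called Syt1 of neurons and Hydin of ependyma lower as well and did not call Zic1, with 0 calls in the other lists that had 0 by edgeR. Without the GC and length trends Pdgfra, Slco1a4 and Zic1 were not called, and the neuronal gene Snap25 was called higher under vehicle (0.24). Sums of the choroid plexus markers differed widely between mice, with 458 CPM in S8, 159.97 in S3, 119 in B and 116 in S7 and between 9.76 and 37.3 CPM in the other 12 mice. Sums of the olfactory bulb markers ran from 14.6 CPM in S5 to 174 CPM in G. Between genotypes under vehicle, the median log2 fold change was 1.47 for choroid plexus and -0.91 for olfactory bulb markers, without a call by edgeR or DESeq2 and with 1 and 0 of 5 at an unadjusted p under 0.05. The pituitary gene Pomc was called under evacetrapib by edgeR and not by DESeq2, where replicate E had 147.8 CPM and the other 3 mice of its group between 1.52 and 1.90 CPM. With evacetrapib over both genotypes, edgeR called Myh11 of mural cells (0.56), and 6 of 7 endothelial and 6 of 7 mural markers had an unadjusted p under 0.05, beside 7.91% of all tested genes, with medians of 0.30 and 0.25. DESeq2 called 3 endothelial markers (Cdh5, Flt1 and Pecam1) and 4 mural markers (Acta2, Myh11, Rgs5 and Tagln), all higher. Endothelial markers, with Flt1 as the most abundant, summed to between 163 and 217 CPM in the 8 vehicle-treated mice and between 203 and 254 CPM in the 8 evacetrapib-treated mice. The part of these cell types in the values of the astrocyte genes was not tested.

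The astrocyte genes were compared with each other over the 16 mice in 45 pairs, of which 6 had an adjusted permutation p of at most 0.05 for Pearson's r of log2 CPM. The permutations moved mice across genotypes and treatments, so a group difference that 2 genes share enters both r and its p. These p-values therefore do not show that 2 genes vary together from mouse to mouse within a group. Aqp4 and Gja1 had the highest r at 0.86 (rho = 0.78, permutation p = 7e-05, adjusted p = 0.0024, and permutation p = 0.00059 for rho, adjusted p = 0.0123). Without the 2 mice farthest from the median of Aqp4, r was 0.75. Within the genotypes, it was 0.41 in CETPtg mice and 0.88 in APPtg/CETPtg mice. The pair of connexin 43 and glutamate transporter genes Slc1a3 and Gja1 had an r of 0.83, with -0.13 within CETPtg and 0.92 within APPtg/CETPtg mice, and Aqp4 and Slc1a3 had 0.81, with 0.24 and 0.80. Slc1a2 had an r of 0.80 with Gja1 (0.47 and 0.73 within the genotypes) and 0.70 with Slc1a3 (0.08 and 0.73). Without 2 mice, r was 0.66 for Slc1a3 and Gja1, 0.62 for Aqp4 and Slc1a3, 0.63 for Slc1a2 and Gja1 and 0.52 for Slc1a2 and Slc1a3. By rho, the pair of Slc1a2 and Slc1a3 missed the threshold (rho = 0.63, permutation p = 0.0106, adjusted p = 0.0954), as did Gfap and Vim, and the other 4 pairs passed it (adjusted p = 0.0123 each). Gfap and Vim had an r of 0.71 (rho = 0.55, permutation p = 0.00225, adjusted p = 0.0188, and permutation p = 0.0302 for rho, adjusted p = 0.194), which was 0.49 without 2 mice, -0.09 within CETPtg and 0.84 within APPtg/CETPtg mice. In all 6 pairs r was higher within APPtg/CETPtg than within CETPtg mice, and the difference between genotypes was not tested. The 4 long genes share the length and GC trends of their libraries, whose part in r was not tested.

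The genes whose log2 CPM followed a member most closely over the 16 mice, given by r as a description, were these. For Gfap they were Prss56 (0.88), Col27a1 (0.86) and Igfbpl1 (0.85), and for Vim they were Cldn19 (0.90), Slc9a3r2 (0.87) and Rasl12 (0.86). For Serpina3n they were Slc25a22 (0.89), Cyb5r1 (0.88) and Uba1 (0.87). For Aqp4 they were Sash1 (0.93), Itga6 (0.89) and Lpar1 (0.89), and for Slc1a2 they were Tbl1xr1 (0.94), Nfia (0.94) and Elk4 (0.94). The 3 genes most like Slc1a2 have between 6407 and 10891 exon bases, and all 3 were called lower between genotypes.

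By the GENCODE M21 annotation of GRCm38, Slc1a2 (ENSMUSG00000005089) lies on the plus strand at chr2:102658659-102790784, Slc1a3 (ENSMUSG00000005360) on the minus strand at chr15:8634124-8710764 and Gja1 (ENSMUSG00000050953) on the plus strand at chr10:56377330-56402513. Exons of Slc1a2 share 189 bases with Gm13872 on the opposite strand, which had a mean count of 0.313 beside 52918 for Slc1a2. Promoters of 9 of the 10 genes were found in the RefSeq table of build GRCm38.p6, which held none for Aqp4. The 250 bases before the start used in that table are shown for the 3 long genes of the table that were lower under vehicle, in capitals where a motif matched on either strand. The motifs were chosen after the values had been seen and are the nuclear factor I half-site TTGGC, the SOX core ACAAT and the STAT pattern, TTC and GAA with 3 bases between them, which do not overlap each other here. They lie at chr2:102706188-102706437 (plus strand) for Slc1a2, chr15:8710808-8711057 (minus strand) for Slc1a3 and chr10:56377050-56377299 (plus strand) for Gja1. The Slc1a2 window lies inside the gene as GENCODE places it, so the table used a start farther along the gene.
Slc1a2: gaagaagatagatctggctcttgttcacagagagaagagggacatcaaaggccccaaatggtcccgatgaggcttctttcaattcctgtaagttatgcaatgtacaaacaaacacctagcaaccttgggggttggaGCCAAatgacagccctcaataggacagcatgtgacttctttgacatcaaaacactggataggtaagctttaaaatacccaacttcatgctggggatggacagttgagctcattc
Slc1a3: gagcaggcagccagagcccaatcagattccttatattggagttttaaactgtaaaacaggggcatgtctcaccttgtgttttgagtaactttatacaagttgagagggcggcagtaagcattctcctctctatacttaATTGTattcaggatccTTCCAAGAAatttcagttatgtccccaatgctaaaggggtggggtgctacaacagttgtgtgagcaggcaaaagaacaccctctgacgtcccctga
Gja1: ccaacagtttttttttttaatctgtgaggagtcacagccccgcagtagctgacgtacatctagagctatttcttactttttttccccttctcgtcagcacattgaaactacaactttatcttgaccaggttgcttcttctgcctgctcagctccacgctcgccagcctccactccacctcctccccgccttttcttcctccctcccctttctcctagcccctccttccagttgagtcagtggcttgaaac

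The Slc1a2 window held 1 nuclear factor I half-site, the Slc1a3 window 1 SOX core and 1 STAT pattern, and the Gja1 window none of the 3 motifs. Of 32851 promoters of the same length in the table, 41.5% held the nuclear factor I half-site, 27.7% the SOX core and 7.02% the STAT pattern, so the matches in Slc1a2 and in Slc1a3 for SOX are common ones. Among the other members, the windows of S100b and Vim held 3 and 2 nuclear factor I half-sites, and neither gene was called. A match is a description of letters and shows no binding.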

How the data were processed

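The table deposited by the authors holds raw counts of reads on genes for 16 mice, and 0 columns with values were left unmapped. According to the submitters' processing notes, reads were trimmed with Trimmomatic 0.39, aligned to mm10 with STAR 2.7.8a, treated with Picard 2.0.1 and counted with HTSeq, and StringTie 1.3.5 and DESeq2 were also used. The annotation used for counting is not given in the sources used here. Gene positions, exon lengths and GC content came from GENCODE M21.

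Genes that reached 10 counts in 4 or more mice went into the quasi-likelihood F-test (edgeR 4.0.16, R 4.3.3), with TMM scaling and Benjamini-Hochberg adjustment over all 18609 genes. Models had terms for treatment and genotype, or a mean for each of the 4 groups. A call needed an adjusted p up to 0.05 and a level higher or lower by at least 5%. CPM used TMM library sizes, and log2 CPM a prior count of 2. Tests were two-sided, intervals are 95% intervals, and correlations had 100000 permutations of the mice, made without regard to group. The steps were tested on simulated data.

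Named genes were the 10 members, the gene with the smallest p of each list of pathway genes in either comparison over all mice, each gene of a list with a call, the most abundant markers, and the 3 genes most like each of Gfap, Vim, Serpina3n, Aqp4 and Slc1a2. Results for some genes of the lists of endfoot genes and oligodendrocyte markers, and the counts over these lists, are not reported here. Members and lists were chosen with earlier results of these data known. The alternatives were the Wald test and the size factors of DESeq2 1.42.0, no filter, at least 10 counts in every mouse, each mouse left out in turn, fits to the 8 mice compared, models without the other factor and, chosen after seeing the data, removal of each mouse's GC and length trends.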

Additional observations from a re-analysis of the deposited data

Results flagged for a closer look

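Each gene was checked in each group of 4 mice for a mouse that stood apart from the other 3, by the gap to its nearest neighbour over the range of the group. Of the 40 groups checked 3 held such a mouse, and chance marks about 1 in 20 groups. Serpina3n had 17.7 CPM in vehicle-treated CETPtg replicate S3 and between 13.6 and 13.9 CPM in the other 3. Serpina3n had 29.6 CPM in vehicle-treated APPtg/CETPtg replicate S6 and between 13.1 and 15.0 CPM in the other 3. Aqp4 had 51.4 CPM in vehicle-treated APPtg/CETPtg replicate S5 and between 66.4 and 68.4 CPM in the other 3.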

How the results depend on the processing

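Of 1530 values of the 10 astrocyte genes under the alternatives, 1501 kept their side of the threshold, 24 lost the call, 5 gained one and 0 changed sign with a call. Values without a call did change sign in places. The log2 fold change of Gfap for evacetrapib over both genotypes, -0.04 with all mice, reached 0.040 with 1 mouse left out. All 40 group levels moved by less than 1 SD with the size factors of DESeq2. With the GC and length trends removed, chosen after seeing the data, members called between genotypes were 1 over both treatments, 0 under vehicle and 0 under evacetrapib, and Dmd lay at 0.056 (adjusted p = 0.419) in place of -0.14. With 1 mouse left out, members called ranged from 2 to 4 over both treatments, from 1 to 4 under vehicle and from 0 to 1 under evacetrapib, and were 0 in the other 4 comparisons. The cause was not tested. DESeq2 and the fit without a filter each called 3 members over both treatments, with Aqp4 added.

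Among all tested genes, calls with the trends removed were 1613 between genotypes, 874 under vehicle and 138 under evacetrapib. DESeq2 called 57 genes for evacetrapib, 73 in APPtg/CETPtg mice, 1135 between genotypes under evacetrapib and 2 for the difference of effects. Without a filter, which changes the genes tested, the calls for evacetrapib were 35, those in CETPtg mice 9, those in APPtg/CETPtg mice 88 and those for the difference 29. The fit to 8 mice called 2 genes for evacetrapib in APPtg/CETPtg mice and 351 between genotypes under evacetrapib. Leaving out 1 mouse gave between 882 and 1981 genes under vehicle, lowest without S3, and between 92 and 809 under evacetrapib, lowest without A. It gave between 2519 and 3581 over both treatments, between 0 and 8 for evacetrapib, and between 0 and 14 for evacetrapib in APPtg/CETPtg mice.

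The members had at least 319 counts in each mouse. How counting noise and the spread between mice each limit their precision was not tested for each member. Plate column cannot be told apart from genotype. The length trends of the genotypes lay apart, and the GC trends overlapped over both treatments but not under vehicle. The APPtg/CETPtg libraries were shallower except S8. Whole tissue hides changes of astrocytes in a single region.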
